A study of Rattus norvegicus with 24 samples.

Results

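The genes described here are the ubiquitin-specific proteases of rat INS-1E cells other than Usp9x and Usp18. They were chosen by symbol alone, as every annotated gene named Usp followed by a number and, in some, a letter. This gave 40 genes of 14217 named genes on the array, from 42 Usp symbols, and where several probe sets named a gene, the brightest on average stood for it. INS-1E is a clonal rat insulinoma line that makes insulin and serves as a model of the pancreatic beta cell; it is a tumour line that stands for no other islet cell. The study measured total RNA on 24 Affymetrix expression arrays, 3 in each of 8 groups. Cells received a mixture of IL-1b (10 ng/ml), IFN-g (50 ng/ml) and TNF-a (25 ng/ml) or no cytokines, each together with 10 uM of the small molecule BRD0476 or with its solvent DMSO alone, for 6 or 12 h. BRD0476 is known as a suppressor of beta-cell death under these cytokines. The labels do not say whether the arrays of a group came from separate cultures, so a p-value here speaks of array-to-array spread alone, which may be technical.

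Ubiquitin is a small protein that cells attach to other proteins, singly or in chains, to send them to the proteasome, to move them between compartments or to change what they bind. Ubiquitin-specific proteases are for the most part cysteine proteases that cut ubiquitin off again, and they form the most numerous family of deubiquitinases. Each acts on its own set of substrates, among them histones, DNA repair proteins, endosomal receptors and the adaptor proteins that pass cytokine signals to NF-kB. Whether every member chosen by symbol codes for an active protease was not examined. Usp18, which removes the ubiquitin-like protein ISG15, and Usp9x, which has been named as a target of BRD0476, are set apart from the other members for those reasons.

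RefSeq promoters (rat build GRCr8, 250 bases before to 50 after the annotated start) were found for 33 of the 40 members. The promoters of Usp25, Usp13 and Usp1 are shown because, among members with a promoter in the table, these had the largest rise and the 2 largest falls at 12 h. They lie at chr11:29090403-29090702, chr2:117505193-117505492 and chr5:118702806-118703105, all on the plus strand, and are printed 5′ to 3′ with a motif match in capitals.
Usp25: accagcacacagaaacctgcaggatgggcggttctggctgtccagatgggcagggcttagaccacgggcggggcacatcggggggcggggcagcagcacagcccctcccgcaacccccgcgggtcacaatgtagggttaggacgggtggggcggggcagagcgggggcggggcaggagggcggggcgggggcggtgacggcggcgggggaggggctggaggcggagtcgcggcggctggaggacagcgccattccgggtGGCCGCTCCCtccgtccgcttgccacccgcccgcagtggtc
Usp13: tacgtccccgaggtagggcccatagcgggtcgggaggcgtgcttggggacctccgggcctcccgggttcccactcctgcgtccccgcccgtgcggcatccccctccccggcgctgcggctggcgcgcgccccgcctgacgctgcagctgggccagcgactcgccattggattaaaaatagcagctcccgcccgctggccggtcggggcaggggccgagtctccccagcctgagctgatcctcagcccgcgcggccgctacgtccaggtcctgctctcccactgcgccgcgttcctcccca
Usp1: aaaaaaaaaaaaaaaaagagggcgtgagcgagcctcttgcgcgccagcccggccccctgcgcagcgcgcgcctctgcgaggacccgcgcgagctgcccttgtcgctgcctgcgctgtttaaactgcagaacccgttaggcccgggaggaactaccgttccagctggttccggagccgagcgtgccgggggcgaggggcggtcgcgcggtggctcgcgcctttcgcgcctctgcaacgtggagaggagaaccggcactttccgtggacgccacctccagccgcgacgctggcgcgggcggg

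The motifs searched, each on both strands, were NF-kB letters (GGGA, any 4 bases, then CC), the GAS element TTCNNNGAA, the interferon response core (GAAA, any 2 bases, then GAAA), the E-box CACGTG and the CRE TGACGTCA. The capitals in the Usp25 promoter mark an NF-kB match on the minus strand, GGGAGCGGCC, from base 9 to base 18 after the start. The promoters of Usp13 and Usp1 held none of these letters. NF-kB letters stood in 10 of the 33 member promoters, against 19.6% of all 27457 promoters in the table. Of those 10 genes, 3 were called in the same direction at both times with cytokines (Usp25 higher, Usp20 and Usp35 lower) and 6 at neither time. A GAS match was found in 1 member promoter (8.68% of all), an E-box in 3 (6.65%), and the interferon core (3.77%) and the CRE (1.91%) in none. The member promoters had a median GC content of 64.33% and a median of 27 CpG sites, against 52.33% and 7 over the whole table. These matches are descriptions of letters in a window and were not tested.

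The arrays were alike in scale, with medians of log2 intensity between 5.49 and 5.57, and arrays of a group correlated with r between 0.992 and 0.998. Replicate 3 of the cytokine and DMSO groups stood apart at both times: its deviations from the group mean had an SD over all genes of 0.195 at 6 h and 0.198 at 12 h, against 0.08 to 0.156 on the other 22 arrays, and these 2 arrays deviated alike (r = 0.722 across genes, which are not independent replicates). With both left out, a choice made after seeing the data, 24 members were called with cytokines in DMSO at 6 h and 17 at 12 h, against 23 and 18 with them. Most beta-cell markers were high throughout: Ins1 read 14.54 and Iapp 13.88 on the log2 scale as means of all arrays. The dimmest of the 8, Nkx6-1, had a mean of 8.38 and ran from 6.90 to 9.50. The alpha-cell gene Gcg was also well above background, between 9.26 and 10.75. Sst, Ppy, Ghrl, Ptprc, Col1a2, Pecam1 and Cpa1 had means near or under the lower quartile of all probe-set values, 3.84. Lyz2 (4.19 to 5.25), Cd68 (mean 4.61) and Col1a1 (mean 4.41) were brighter but under the median of all values, 5.52. Besides Gcg, only Pdgfra (4.82 to 6.82) and Kdr (3.88 to 6.51) in these lists had means above that median. With cytokines in DMSO 7 of 8 beta-cell markers fell at 6 h and 4 of 8 at 12 h. Of all genes 27.4% fell at 6 h and 29.9% at 12 h. The summed level of the beta-cell list ran from 16.38 to 16.53 without and from 16.23 to 16.25 with cytokines at 6 h, and from 16.44 to 16.51 and 16.34 to 16.38 at 12 h. Gcg, Pdgfra and Kdr fell in the same comparisons, while the other 3 of 4 fibroblast markers were not called and Pecam1, the other of 2 endothelial markers, was called higher at 6 h (0.33) and not at 12 h (0.079). The part of these markers and of the beta-cell list in the changes described next was not tested. In these bulk samples fewer cells of a kind and less RNA per cell cannot be told apart.

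Most members were clearly measured in this line. The mean over the 24 arrays lay above the upper quartile of all probe-set values (8.07) for 23 members, between the median (5.52) and the upper quartile for 14, between the lower quartile and the median for 2, and under the lower quartile for 1. These quartiles are of all probe sets, while each gene was read from its brightest. The median level was 8.26 for the members and 7.27 over all genes, and 61.5% of all genes lay below Usp35 (8.12). Usp14, a protease bound to the proteasome, ran from 11.82 to 12.19. At the dim end, Usp44, an H2B deubiquitinase of the mitotic checkpoint, ran from 3.22 to 3.70 and Usp31 from 4.16 to 4.92, close to background. Usp49 (4.96 to 5.73), Usp2 (4.74 to 6.56) and Usp27x (5.55 to 6.31) were the next dimmest. Intensities of different probe sets depend on their probes, so levels of different genes were not ranked against each other.

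Across the 8 groups the mean of a member moved by 0.168 to 3.27 on the log2 scale, with a median span of 0.486 against 0.513 over all genes. A span of at least 1 was seen in 6 members, or 15%, against 19.5% of all genes, and a span under 0.5 in 20. Usp25 had the widest span and Usp13, Usp43, Usp29, Usp1 and Usp3 were the other 5 past 1.

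**Figure D1:**
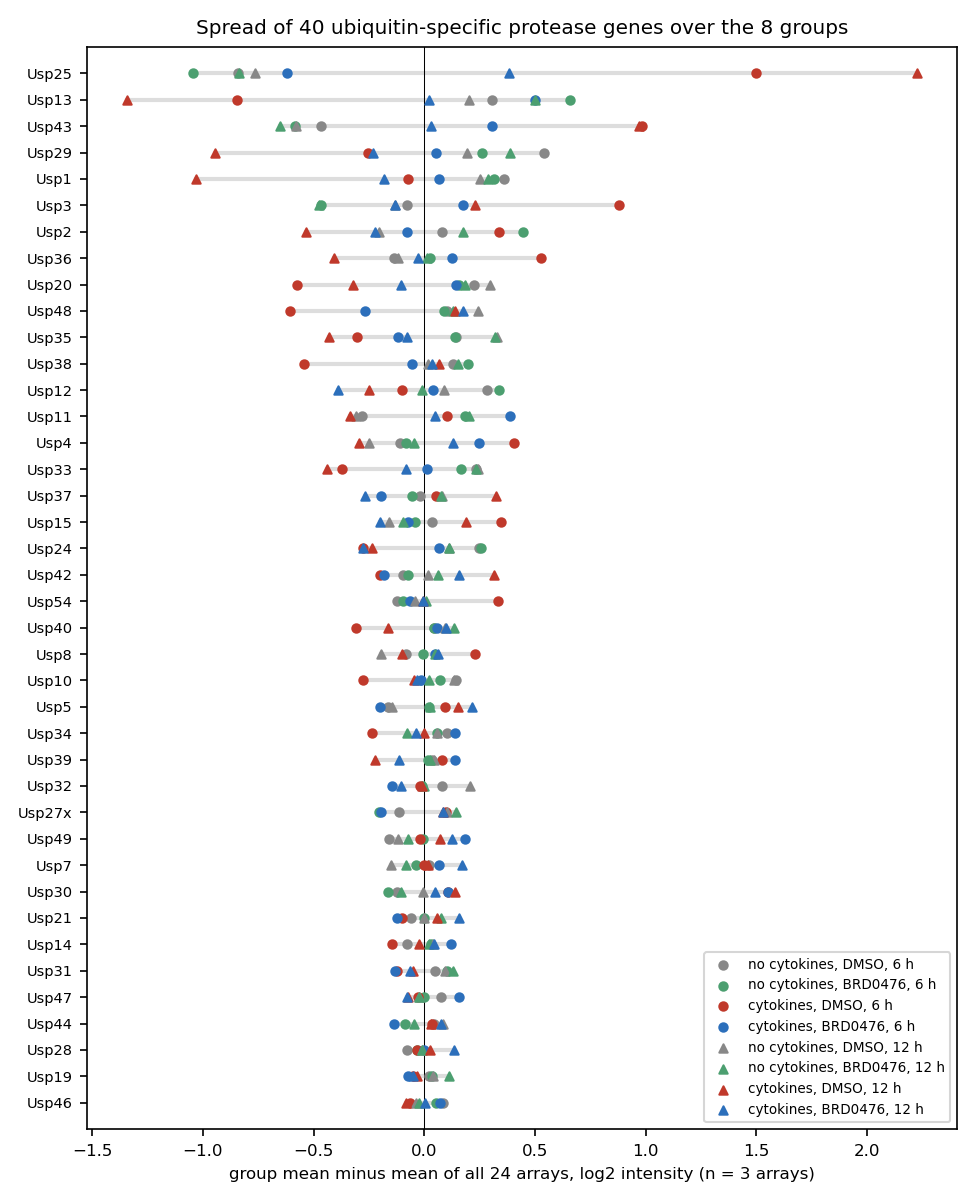
Group means (n = 3 arrays) of the 40 genes, each as its difference in log2 intensity from the mean of that gene over all 24 arrays, ordered by the span; circles are 6 h, triangles 12 h, and colours the treatment. A red cytokine and DMSO symbol marks the far end of the span for Usp25, Usp13, Usp43, Usp1 and Usp3, and Usp25 spans 3.27.

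The first comparison asks what the cytokines did in DMSO. At 6 h, 10 members rose and 13 fell at a limma adjusted p below 0.05 taken over all 14217 genes, 23 of 40 (57.5%) where 51.7% of all genes were called. At 12 h, 5 rose and 13 fell, 18 of 40 (45%) against 45.9% of all genes. The median size of change of the 40 was 0.325 at 6 h and 0.202 at 12 h on the log2 scale, beside 0.262 and 0.222 over all genes. The arrays of both groups did not overlap for 22 members at 6 h (53.3% of all genes) and for 21 at 12 h (53.1%). The shares of members called thus lay near those of all genes at both times. Changes of at least 2-fold were few: Usp25 and Usp43 rose that far at both times, Usp13 fell that far at both times, and Usp1 and Usp29 at 12 h. In all, 4 members rose at both times (Usp3, Usp15, Usp25 and Usp43) and 10 fell at both (Usp1, Usp10, Usp12, Usp13, Usp20, Usp24, Usp29, Usp33, Usp35 and Usp40). Usp36 rose at 6 h and fell at 12 h, 8 members were called at 6 h alone, 3 at 12 h alone and 14 at neither time. The share of all genes with each of these patterns was not counted, so the patterns are not read as a trait of the members. When the 6 arrays of a comparison were left out in turn, the 12 h call was lost with 6 of them for Usp32, with 3 each for Usp10, Usp24 and Usp36, and with 1 each for Usp39 and Usp42. At 6 h it was lost with 2 for Usp11 and 1 each for Usp8 and Usp54.

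**Figure D2:**
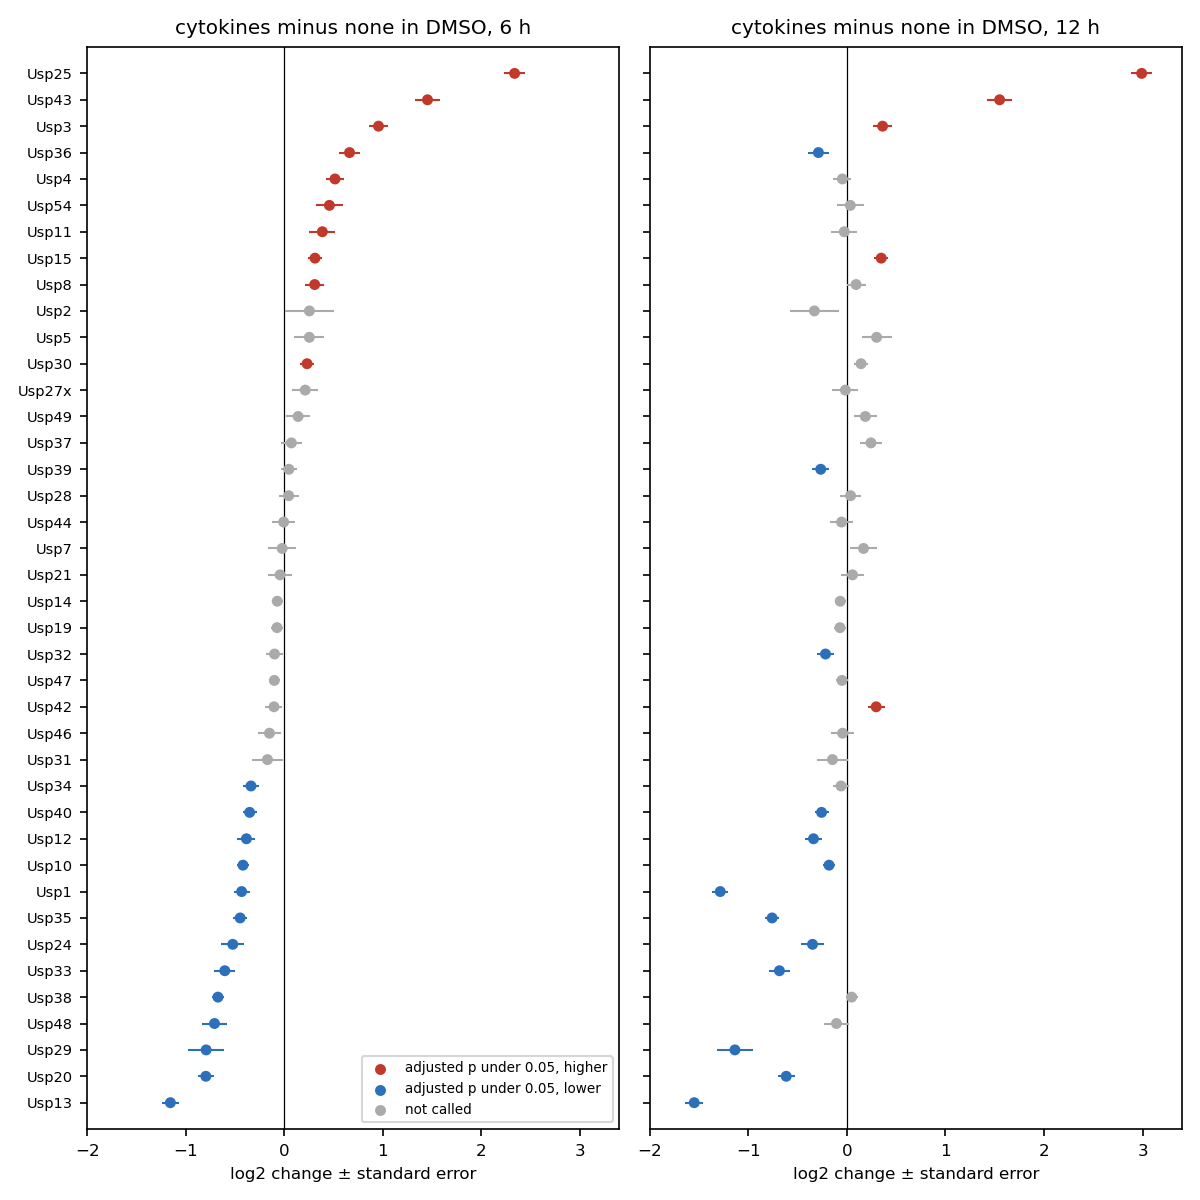
Log2 change of each of the 40 genes with cytokines in DMSO (3 against 3 arrays) with its standard error, at 6 h on the left and 12 h on the right, both in the order of the 6 h change. Red and blue points passed an adjusted p of 0.05; Usp25 and Usp43 stand at the top and Usp13 at the bottom of both panels, while Usp38 and Usp48 are low at 6 h and near 0 at 12 h.

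Usp25, which trims ubiquitin chains on TRAF adaptor proteins in cytokine and antiviral signalling, had the largest rise. Without cytokines the DMSO arrays read 7.83, 8.09 and 7.62 at 6 h and 7.92, 7.89 and 7.96 at 12 h. With cytokines they read 10.15, 10.21 and 10.18 at 6 h and 10.92, 10.81 and 11.01 at 12 h. Every cytokine array was more than 2 log2 units above every array without cytokines of the same time. The change was 2.34 ± 0.11 (SE, n = 3 against 3, adjusted p = 7.75e-14), or 5.05-fold, at 6 h and 2.99 ± 0.11 (adjusted p = 1.36e-15), or 7.95-fold, at 12 h. These values come from a bright probe set. The other Usp25 probe set had a mean of 3.54, under the lower quartile of all values, and changed by 0.04 at both times (adjusted p = 0.79 and 0.83).

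Usp43 was the only other member to rise more than 2-fold. Its arrays without cytokines lay between 6.51 and 6.97 over both times in DMSO. With cytokines they read 8.27, 8.15 and 8.50 at 6 h and 8.24, 8.16 and 8.48 at 12 h, so the groups stood clear of each other. The rise was 1.45 ± 0.12 at 6 h (adjusted p = 2.38e-09), or 2.74-fold, and 1.55 ± 0.12 at 12 h (adjusted p = 1.26e-09), or 2.93-fold, on the single probe set for this gene.

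Usp3, which removes ubiquitin from histones H2A and H2B, rose most at the earlier time. Its DMSO arrays read 8.38, 8.38 and 8.26 without and 9.28, 9.20 and 9.41 with cytokines at 6 h, and 8.19, 8.36 and 8.32 without and 8.62, 8.69 and 8.64 with cytokines at 12 h. The groups did not overlap at either time, and the gap at 12 h was the narrower. The rise was 0.96 ± 0.10 at 6 h (adjusted p = 3.74e-08) and 0.36 ± 0.10 at 12 h (adjusted p = 0.0043). The difference between the times was itself past the threshold (-0.59, adjusted p = 0.0024).

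Usp15 and Usp4 are close relatives that act in TGF-beta signalling and on spliceosome proteins. Usp15 rose by 0.31 ± 0.07 at 6 h (adjusted p = 0.00105) and by 0.35 ± 0.07 at 12 h (adjusted p = 4.57e-04), although at 6 h 1 array without cytokines (9.08) reached the lowest cytokine array (9.08). Usp4 rose by 0.51 ± 0.09 at 6 h (adjusted p = 6.87e-05), where its second probe set was called in the same direction, and differed by -0.05 at 12 h without a call.

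Usp36, a nucleolar protease that stabilises Myc, changed direction. Its DMSO arrays read 8.68, 8.73 and 8.53 without and 9.55, 9.36 and 9.02 with cytokines at 6 h. At 12 h they read 8.67, 8.69 and 8.63 without and 8.52, 8.47 and 8.14 with cytokines. All cytokine arrays were above the others at 6 h and below them at 12 h, and replicate 3 was the lowest of its cytokine group both times. The change was 0.66 ± 0.11 (adjusted p = 1.67e-05) and then -0.29 ± 0.11 (adjusted p = 0.03). The fall at 12 h was not called without replicate 3 of the cytokine and DMSO arrays (-0.17), nor without replicate 1 (-0.29) or replicate 2 (-0.27) of the DMSO arrays without cytokines. Among the other rises at 6 h, Usp54 changed by 0.46, although replicate 2 without cytokines (7.94) lay above the lowest cytokine array (7.86). The Usp54 call was lost without replicate 3 of the DMSO arrays without cytokines (0.31).

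**Figure D3:**
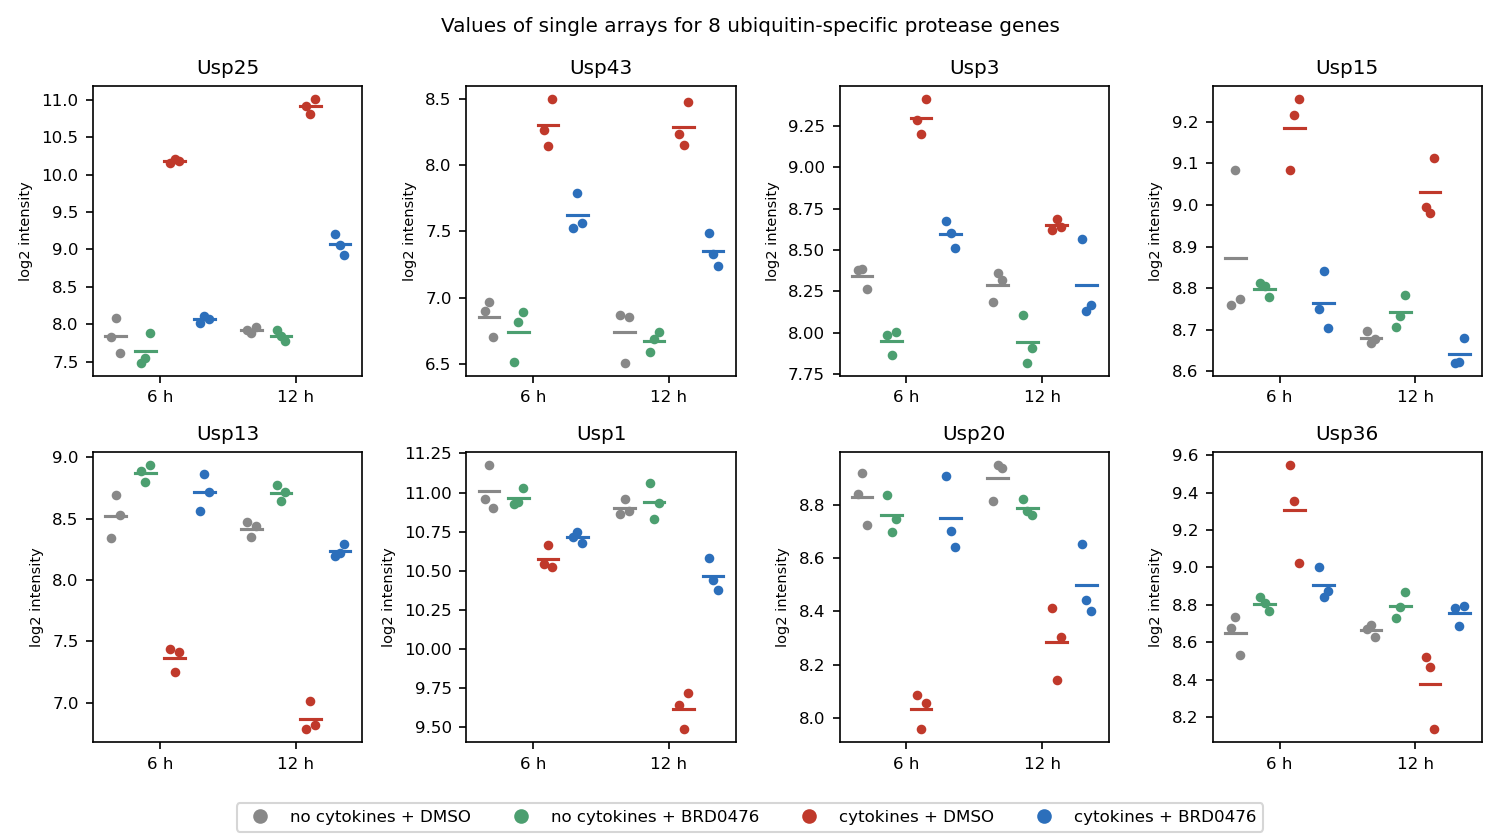
Log2 intensity of every array (points) and the group mean (lines, n = 3) for 8 members, in the order no cytokines with DMSO, no cytokines with BRD0476, cytokines with DMSO and cytokines with BRD0476 at each time; each panel has its own axis, which does not start at 0. For Usp25, Usp43 and Usp13 the cytokine and DMSO arrays stand clear of every other group of the same time; the cytokine and BRD0476 arrays lie nearer the untreated ones for Usp25 and Usp13 and in between for Usp43.

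Usp13, a relative of Usp5 with substrates in autophagy and endoplasmic reticulum quality control, had the largest fall. Its DMSO arrays read 8.35, 8.69 and 8.53 without and 7.44, 7.25 and 7.41 with cytokines at 6 h. At 12 h they read 8.47, 8.35 and 8.44 without and 6.79, 7.01 and 6.81 with cytokines. No cytokine array came within 0.9 log2 units of an array without cytokines. The change was -1.16 ± 0.09 at 6 h (adjusted p = 4.75e-10), a 2.23-fold fall, and -1.55 ± 0.09 at 12 h (adjusted p = 5.8e-12), a 2.92-fold fall. A second probe set fell by 0.92 and 1.40, and another with a mean of 5.06, under the median of all values, was not called (-0.04 and 0.06).

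Usp1, which with its partner Wdr48 deubiquitinates PCNA and FANCD2 in DNA repair, fell mostly late. Its DMSO arrays read 10.96, 11.17 and 10.90 without and 10.55, 10.66 and 10.52 with cytokines at 6 h. At 12 h they read 10.86, 10.96 and 10.89 without and 9.64, 9.49 and 9.72 with cytokines, so the gap between the groups had widened. The fall was -0.43 ± 0.08 at 6 h (adjusted p = 9.75e-05) and -1.28 ± 0.08 at 12 h (adjusted p = 2.18e-11), or 2.44-fold, and the change between times was past the threshold (-0.85, adjusted p = 6.89e-06). The second Usp1 probe set read -0.36 at 6 h (adjusted p = 0.204) and -1.04 at 12 h (adjusted p = 6.36e-04).

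The paired relatives Usp20 and Usp33, which deubiquitinate the beta2-adrenergic receptor and other receptors on their way back to the cell surface, both fell. Usp20 read 8.84, 8.92 and 8.72 without and 8.08, 7.96 and 8.06 with cytokines in DMSO at 6 h, and fell by 0.80 ± 0.08 at 6 h and 0.62 ± 0.08 at 12 h (adjusted p = 6.5e-08 and 3.58e-06). Usp33 fell by 0.60 ± 0.11 and 0.68 ± 0.11 (adjusted p = 5.9e-05 and 1.83e-05). No array overlapped in any of these 4 comparisons. A dimmer Usp20 probe set, with a mean of 5.04, fell too (-0.68 and -0.45), while one with a mean of 6.97 was not called at either time (0.10 and -0.23).

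Usp35 and Usp38, another pair of relatives, differed in time course. Usp35 read 8.21, 8.34 and 8.23 without and 7.80, 7.72 and 7.91 with cytokines in DMSO at 6 h, and 8.44, 8.43 and 8.47 without and 7.80, 7.62 and 7.64 with cytokines at 12 h. It fell by 0.45 ± 0.07 at 6 h and by 0.76 ± 0.07 at 12 h (adjusted p = 1.31e-05 and 1.17e-08). Usp38 read 7.51, 7.39 and 7.59 without and 6.79, 6.87 and 6.83 with cytokines at 6 h, a fall of 0.67 ± 0.06 (adjusted p = 7.07e-09). At 12 h its cytokine arrays (7.38, 7.46 and 7.48) overlapped those without (7.39, 7.35 and 7.43), and the change was 0.05. The second Usp38 probe set was also called lower at 6 h and not at 12 h.

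Usp48, which acts on the NF-kB subunit RelA, behaved like Usp38 in time: it fell by 0.71 ± 0.12 at 6 h (adjusted p = 4.66e-05) and read -0.11 at 12 h without a call, although its second probe set was flat at 6 h (-0.04). Usp29, from an imprinted gene cluster, fell by 0.79 ± 0.18 at 6 h and 1.14 ± 0.18 at 12 h (adjusted p = 8.12e-04 and 2.25e-05). Its DMSO arrays read 7.19, 7.42 and 7.50 without and 6.63, 6.35 and 6.74 with cytokines at 6 h, and 7.40, 6.86 and 6.81 without and 5.73, 5.79 and 6.14 with cytokines at 12 h. The groups did not overlap at either time. At 12 h Usp42, which acts on p53 and histones, rose by 0.30 ± 0.09 (adjusted p = 0.00727), a call that was lost without replicate 1 of the cytokine and DMSO arrays (0.20).

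The members were also counted by role, where over all genes 24.3% rose and 27.4% fell at 6 h and 16% rose and 29.9% fell at 12 h. Of 8 endosome and receptor members 1 rose and 4 fell at 6 h (median change -0.27), and 0 rose and 5 fell at 12 h (median -0.27), among them Usp32 and Usp10, whose calls were lost with 6 and 3 of the arrays left out in turn. Of the NF-kB and cytokine signalling members 4 rose (Usp4, Usp11, Usp15 and Usp25) and 3 fell (Usp10, Usp38 and Usp48) of 10 at 6 h, and 2 rose and 1 fell at 12 h. Of 8 chromatin members 2 rose (Usp3 and Usp36) at 6 h; 2 rose and 1 fell at 12 h.

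The DNA repair and replication list had 2 rises and 3 falls among 9 at 6 h, and 1 rise and 2 falls at 12 h. Of the 3 members for unanchored chains and the proteasome, Usp13 fell both times, and Usp5 and Usp14 were not called. Usp1, Usp12 and Usp46 share the partner Wdr48; the first 2 fell at both times and Usp46 was not called. Of the 5 mitochondrial and endoplasmic reticulum members 3 rose at 6 h, among them Usp30 of the outer mitochondrial membrane (0.23), and 1 fell; at 12 h 1 rose and 1 fell. The cell division list had 2 rises of 5 at 6 h and 1 rise and 1 fall at 12 h. The splicing list had 3 rises of 4 at 6 h and 1 rise and 2 falls at 12 h, the falls being Usp36 and Usp39, a component of the spliceosome. The role lists share members and were not tested.

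The cytokine change itself differed between 6 and 12 h for 11 of 40 members (27.5%), where 28.8% of all genes did, 11.8% upward and 16.9% downward. It was higher at 12 h in Usp38 (0.72 ± 0.09, adjusted p = 2.1e-06), Usp25 (0.65 ± 0.15), Usp48 (0.60 ± 0.17), Usp42 and Usp10. It was lower at 12 h in Usp36 (-0.95 ± 0.15, adjusted p = 4.98e-05), Usp1, Usp3, Usp4 (-0.56 ± 0.13), Usp13 and Usp35. With each of 12 arrays left out in turn, the call was lost with 10 for Usp10, 5 for Usp13, 3 for Usp35 and 2 for Usp42. With the probe sets averaged it was lost for Usp25 (0.32), Usp4 (-0.34), Usp42 (0.23) and Usp48 (0.36), and without both stand-apart arrays for Usp13 (-0.34) and Usp35 (-0.24). In the DMSO cells without cytokines, no member was called between 6 and 12 h by limma, where 1.67% of all genes were. In that comparison 4 members had an unadjusted p below 0.05, and array weights in the fit gave 3 calls. Without replicate 2 of the DMSO arrays at 6 h the count was 1.

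The second comparison asks what BRD0476 did in the presence of cytokines. It shares the cytokine and DMSO arrays with the comparison above, so a gene that those arrays placed high in one is placed low in the other, and the 2 sets of values are given side by side without a measure of likeness. At 6 h 12 members were higher and 6 lower with BRD0476, 18 of 40 (45%) against 44% of all genes, of which 24.7% were higher and 19.4% lower. At 12 h 9 were higher and 5 lower, 14 of 40 (35%) against 26.9% of all genes, of which 16.3% were higher and 10.6% lower. Of these, Usp13, Usp33, Usp35 and Usp40 were higher at both times and Usp3, Usp15, Usp25 and Usp43 lower at both. The share of all genes called in the same direction at both times was not counted here either.

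Usp25 in cells given cytokines and BRD0476 read 8.02, 8.12 and 8.06 at 6 h and 9.21, 9.06 and 8.93 at 12 h. All 6 arrays were below every array with cytokines in DMSO. The difference from DMSO was -2.12 ± 0.11 (adjusted p = 1.52e-12) and -1.85 ± 0.11 (adjusted p = 2.12e-11). Usp43 read 7.53, 7.79 and 7.57 at 6 h and 7.49, 7.33 and 7.24 at 12 h, between the arrays without cytokines and those with cytokines in DMSO. The difference was -0.68 ± 0.12 (adjusted p = 1.17e-04) and -0.94 ± 0.12 (adjusted p = 5.01e-06).

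Usp13 read 8.56, 8.87 and 8.72 with cytokines and BRD0476 at 6 h and 8.20, 8.22 and 8.29 at 12 h, above every array with cytokines in DMSO. The difference was 1.35 ± 0.09 and 1.37 ± 0.09 (adjusted p = 1.13e-10 and 1.69e-10). Usp1 read 10.72, 10.75 and 10.68 at 6 h, where the difference of 0.14 was not called. At 12 h it read 10.58, 10.44 and 10.38, all above the cytokine and DMSO arrays, and differed by 0.85 ± 0.08 (adjusted p = 4.34e-08). Usp20 differed by 0.72 ± 0.08 at 6 h (adjusted p = 4.96e-07), and Usp38 by 0.49 ± 0.06 (adjusted p = 1.31e-06).

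Smaller differences at 6 h were seen for Usp3 (-0.70), Usp15 (-0.42), Usp36 (-0.40) and Usp54 (-0.40) in one direction, and for Usp33 (0.38), Usp34 (0.38) and Usp40 (0.36) in the other. With the probe sets of a gene averaged, Usp34 differed by 0.23 and the Usp40 call was lost (0.093), as were those of Usp24 (0.22) and Usp48 (0.17). Usp34 acts on axin in Wnt signalling, and Usp14 of the proteasome differed by 0.27. The Usp35 call at 6 h (0.19) was lost with 4 of the 6 arrays left out in turn, at values of 0.14 to 0.20. The Usp54 call was lost without replicate 1 of the cytokine and BRD0476 arrays (-0.39) and without replicate 1 (-0.33) or 2 (-0.40) of the cytokine and DMSO arrays. At 12 h the other differences included Usp29 (0.71), Usp4 (0.43), Usp11 (0.38), Usp36 (0.38), Usp15 (-0.39), Usp3 (-0.36) and Usp37 (-0.59), which deubiquitinates cyclin A.

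With the probe sets averaged the 12 h calls of Usp4 (0.24), Usp11 (0.14) and Usp40 (0.095) were lost. Of the 12 h calls, Usp3 was lost without replicate 2 of the cytokine and BRD0476 arrays (-0.28) and Usp36 without replicate 3 of the cytokine and DMSO arrays (0.26). Usp33 (0.31) and Usp40 (0.21) were lost without replicate 2 of the cytokine and DMSO arrays. The Usp11 call was lost without replicate 2 (0.37) or 3 (0.35) of the cytokine and BRD0476 arrays and without replicate 3 of the cytokine and DMSO arrays (0.22).

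With BRD0476 present at both ends of the comparison, cytokines still changed 10 of 40 members at 6 h, 5 up and 5 down (25%, against 20.9% of all genes), and 12 at 12 h, 3 up and 9 down (30%, against 27.7%). Of all genes 10.3% rose and 10.7% fell at 6 h, and 9.19% rose and 18.5% fell at 12 h. Usp43 rose by 0.89 ± 0.12 at 6 h and 0.68 ± 0.12 at 12 h (adjusted p = 1.3e-05 and 2.44e-04). Usp3 rose by 0.65 ± 0.10 and 0.34 ± 0.10, and Usp25 by 0.42 ± 0.11 and 1.22 ± 0.11 (adjusted p = 0.00508 and 1.21e-08). Usp13 was not called at 6 h (-0.16) and fell by 0.48 ± 0.09 at 12 h (adjusted p = 3.17e-04). Usp1 fell by 0.25 ± 0.08 and 0.47 ± 0.08 (adjusted p = 0.0292 and 1.15e-04), and Usp35 by 0.26 and 0.40. At 6 h Usp48 (-0.36), Usp12 (-0.30) and Usp38 (-0.25) also fell, and Usp4 (0.33) and Usp30 (0.27) rose. Usp29 had the largest fall at 12 h (-0.62), and Usp24 (-0.39) and Usp12 (-0.38) fell too. With the probe sets averaged Usp25 read 0.24 at 6 h without a call and 0.57 at 12 h with one. The 6 h calls of Usp1 (-0.21), Usp4 (0.26), Usp38 (-0.15) and Usp48 (-0.17) were then lost, as was the 12 h call of Usp24 (-0.18). The 6 h count was 6 without replicate 2 of the cytokine and BRD0476 arrays, and the Usp1 call at 6 h was lost when any of 5 of the 6 arrays was left out (-0.27 to -0.22). Calls at 6 h were lost with 5 of the arrays left out in turn for Usp48, 4 for Usp12 and 1 each for Usp4 and Usp30. The Usp3 rise at 12 h was lost without replicate 1 of the cytokine and BRD0476 arrays (0.20) or replicate 2 of the arrays with BRD0476 alone (0.28). Of the falls at 12 h, the call was lost with 5 of the 6 arrays for Usp33, 4 for Usp37, 3 each for Usp20 and Usp24 and 2 for Usp29.

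The interaction term tests whether the cytokine change differed between BRD0476 and DMSO. It was called for 12 of 40 members at 6 h (30%, against 33.2% of all genes) and for 7 at 12 h (17.5%, against 15.3%). It was positive for 8 and negative for 4 at 6 h (18.8% and 14.4% of all genes), and positive for 3 and negative for 4 at 12 h (8.38% and 6.89%). The values are signed, so a negative one means a cytokine change that was less positive or more negative with BRD0476. For a gene that fell in DMSO, a positive one means a smaller fall or a rise with BRD0476. Usp25 had -1.91 ± 0.15 at 6 h and -1.77 ± 0.15 at 12 h (adjusted p = 3.82e-09 and 2.25e-08). Usp13 had 0.996 ± 0.13 and 1.07 ± 0.13 (adjusted p = 3e-06 and 2.36e-06). These 2 genes and Usp15 and Usp43 were the members called at both times. Usp43 had -0.56 ± 0.18 at 6 h, lost without replicate 3 of the DMSO arrays (-0.48) or of the arrays with BRD0476 alone (-0.49), and -0.87 ± 0.18 at 12 h (adjusted p = 0.00124). Usp20 was called at 6 h (0.79 ± 0.12, adjusted p = 2.8e-05) and Usp1 at 12 h (0.81 ± 0.11, adjusted p = 2.02e-05). With the probe sets averaged the term was -0.95 and -0.94 for Usp25, 0.53 and 0.62 for Usp13 and 0.52 for Usp20 at 6 h, all called, and the 6 h calls of Usp34 (0.25) and Usp40 (0.05) were lost. For Usp3, which rose with cytokines with and without BRD0476, the term was not called at either time.

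**Figure D4:**
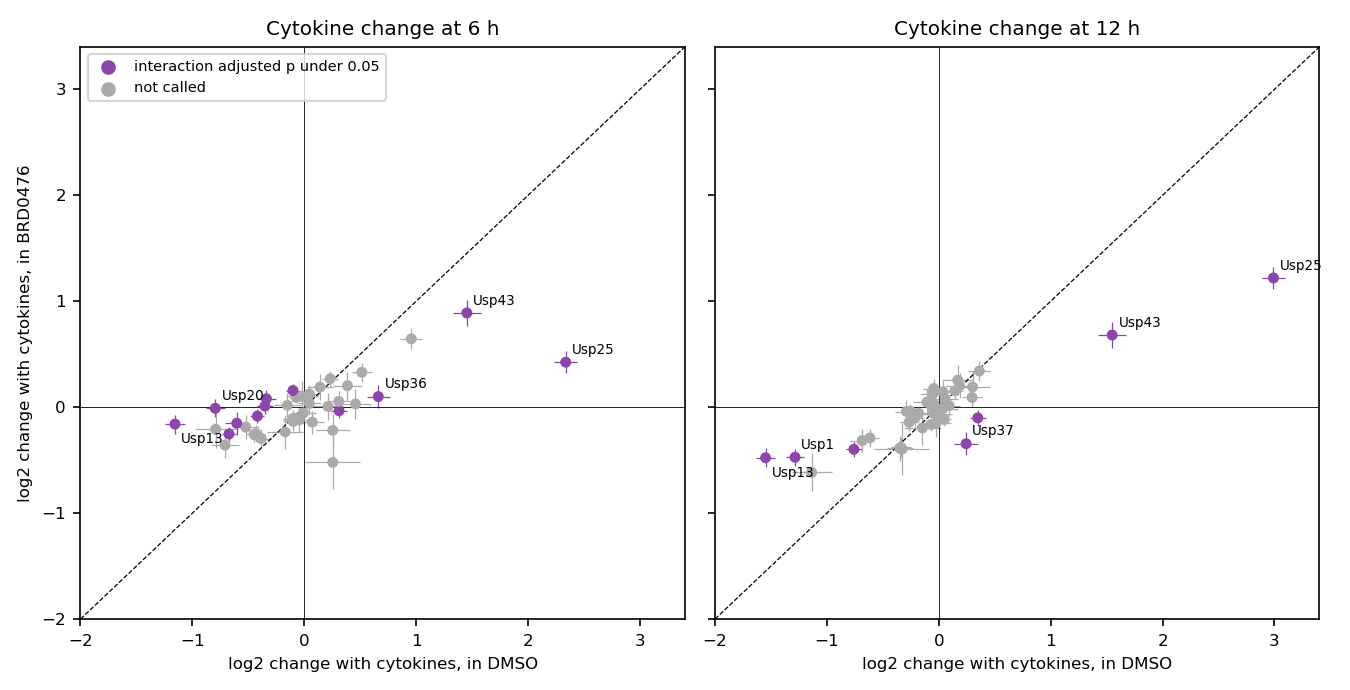
Log2 change with cytokines in DMSO (x axis) against that with BRD0476 (y axis) for the 40 genes at 6 h and 12 h, with standard errors; the dashed line marks equal change, purple points have a called interaction, and those of size 0.5 or more are named. Usp25 lies far below the line (2.34 against 0.42 at 6 h) and Usp13 above it (-1.16 against -0.16 at 6 h).

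The effect of BRD0476 with cytokines was also compared between the times, a comparison added after the first results were seen. It differed for 7 of 40 members (17.5%, against 25% of all genes, 11.9% upward and 13.2% downward), with Usp36 (0.78 ± 0.15), Usp1 (0.71 ± 0.11) and Usp4 (0.59 ± 0.13) higher at 12 h and Usp38 (-0.52 ± 0.09), Usp20 (-0.50 ± 0.12), Usp34 and Usp10 lower. The Usp10 call was lost with 8 of the 12 arrays left out in turn, and those of Usp20 (-0.28) and Usp34 (-0.18) with the probe sets averaged.

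Without cytokines BRD0476 moved few members. At 6 h Usp13 was higher and Usp3 lower, 2 of 40 (5%) against 3.53% of all genes (1.68% higher, 1.85% lower), and at 12 h Usp11 was higher and Usp3 lower, 2 of 40 (5%) against 4.66% (2.02% higher, 2.64% lower). Usp3 read 7.98, 7.87 and 8.004 with BRD0476 at 6 h and 8.11, 7.82 and 7.91 at 12 h. All 6 were below the DMSO arrays of the same time, and the difference was -0.39 ± 0.10 (adjusted p = 0.0271) and -0.34 ± 0.10 (adjusted p = 0.049). Usp13 differed by 0.35 ± 0.09 at 6 h (adjusted p = 0.0297). Usp11, a relative of Usp4 and Usp15 with a part in DNA repair, differed by 0.51 ± 0.13 at 12 h (adjusted p = 0.0278). At 6 h its arrays read 8.37, 8.32 and 8.62 with BRD0476 and 8.03, 8.09 and 7.79 in DMSO. That difference of 0.47 was not called. These calls were thin: leaving out single arrays gave 0 to 1 calls at 6 h and 0 to 2 at 12 h, with -0.42 to -0.35 for Usp3 at 6 h where the call was lost.

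Among the members, 11 were called in none of the 8 comparisons of treatments: Usp2, Usp5, Usp7, Usp19, Usp21, Usp27x, Usp28, Usp31, Usp44, Usp46 and Usp49. Their largest differences ran from 0.119 in Usp21 to 0.521 in Usp2, whose arrays varied widely. The share of all genes called in none of the 8 comparisons was not counted, so this number of members has no measure beside it. Usp7, the protease of Mdm2 and p53, and Usp5, which takes apart free ubiquitin chains, were bright and had largest differences of 0.255 and 0.302. Where a member had several probe sets (21 of 40), only Usp40 had probe sets called in opposite directions with cytokines in DMSO: at 6 h the chosen set fell by 0.35 and one near background (mean 3.73) rose by 0.29. With the probe sets of each gene averaged, the cytokine change in DMSO was 1.19 and 1.51 for Usp25 at 6 and 12 h and -0.71 and -0.96 for Usp13, and at 6 h -0.46 for Usp20 and -0.37 for Usp48, all still called. The calls of Usp8 (0.064), Usp34 (-0.12) and Usp40 (-0.053) at 6 h and of Usp32 (-0.20) and Usp40 (-0.13) at 12 h were lost. With BRD0476 in the presence of cytokines Usp25 then differed by -1.03 and -0.91 and Usp13 by 0.77 and 0.76, both still called.

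Other deubiquitinase families changed beside the members, in comparisons in which 24.3% of all genes rose and 27.4% fell at 6 h, and 16% rose and 29.9% fell at 12 h. Tnfaip3, the OTU-family protein A20 that restrains NF-kB signalling, rose by 2.99 at 6 h and 3.23 at 12 h with cytokines in DMSO, and Otud1 by 2.14 and 0.33. Otub2 rose by 0.74 at 6 h and fell by 0.91 at 12 h. Of 12 OTU genes 6 rose and 2 fell at 6 h, and 2 rose and 2 fell at 12 h. Cyld, which removes linear and K63-linked chains and is close in fold to the members, rose by 1.20 ± 0.10 and 1.34 ± 0.10. With its relatives Uspl1 and Pan2 it made a list of 3, in which Uspl1 fell at 12 h (-0.25). All 3 Josephin genes fell at both times, Atxn3 by 1.36 and 0.58, Josd1 by 0.73 and 1.10 and Josd2 by 0.41 and 0.32. In the JAMM family 3 of 12 rose and 5 fell at 6 h, with Mpnd at -0.91 and Stambp, an endosomal protease, at 0.89; at 12 h 1 rose and 1 fell. Of 5 Mindy and Zup1 genes 2 rose and 1 fell at 6 h and 3 rose and 2 fell at 12 h, with Zup1 at 0.9999 and 1.29. Of 4 UCH genes 2 rose and 2 fell at 6 h, and 1 rose (Uchl1, 0.76) and 1 fell at 12 h.

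With cytokines and BRD0476 against cytokines and DMSO, Otud1 was lower by -2.77 at 6 h and -1.05 at 12 h, and Cyld by -0.91 and -1.01. All 3 Josephin genes were higher at both times, Atxn3 by 0.97 and 0.23. Tnfaip3 was lower by -0.73 at 12 h. Otub2 was lower by -0.66 at 6 h and higher by 0.98 at 12 h. Of the 12 OTU genes 2 were higher and 4 lower at 6 h, and 1 was higher and 2 lower at 12 h. Of the 12 JAMM genes 7 were higher and 1 lower at 6 h and none was called at 12 h, where over all genes 24.7% were higher and 19.4% lower at 6 h and 16.3% and 10.6% at 12 h.

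Among 12 measured partners of the proteases 3 rose and 3 fell with cytokines in DMSO at 6 h, and 4 rose and 3 fell at 12 h. Over all genes 24.3% rose and 27.4% fell at 6 h, and 16% rose and 29.9% fell at 12 h. Wdr20, which joins Wdr48 to activate Usp12 and Usp46, fell by 0.74 and 0.75. Among 7 E1 enzymes, which load ubiquitin or its relatives, 3 rose and 3 fell at 6 h, and 3 rose and 1 fell at 12 h. Uba7, the E1 of ISG15, rose by 2.37 ± 0.15 at 6 h and 2.17 ± 0.15 at 12 h, and with BRD0476 it was lower by -1.46 and -1.31 in the presence of cytokines. Of 8 SUMO proteases 4 rose and 1 fell at 6 h, all by less than 0.5, and 1 rose and 2 fell at 12 h.

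Usp18 and Usp9x give the scale of the 2 genes left out. Usp18 rose by 7.21 and 7.14 with cytokines in DMSO and with BRD0476 was lower by -2.90 and -1.55 in the presence of cytokines. Usp9x fell by 0.91 and 0.36, was higher by 0.92 with BRD0476 and cytokines at 6 h, and was not called at 12 h (0.10).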

How the data were processed

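The deposited values are linear probe-set intensities that the authors made with RMA, per the submitters' processing notes; the version and the chip definition are not given in the sources used here. They were taken to log2 with no further normalization. Of 31099 probe sets, 20826 carried 1 gene symbol in the platform annotation and gave 14217 genes, each read from its brightest probe set on average. A group-means model over all 24 arrays was fitted with limma 3.58.1 in R 4.3.3 (lmFit and eBayes, 16 residual and 3.97 prior degrees of freedom), after a test on simulated data. P-values were adjusted over all genes by the Benjamini-Hochberg method, with calls made below 0.05.

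The members, the role lists, the lists of other deubiquitinases, partners, E1 enzymes, SUMO proteases and cell markers, and the tests were chosen with earlier results of these data known. Named members are those with the 6 largest called rises and falls of a comparison, those with called interactions or time differences, dim members and opposed probe sets; from the other lists, up to 3 called genes each. RefSeq promoters were matched by symbol for the counts of member promoters and the GC and CpG medians. The printed promoters and the motif matches of named genes were matched by Entrez gene identifier. With 3 arrays a group, the number of arrays limits the precision.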

Additional observations from a re-analysis of the deposited data

Results flagged for a closer look

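The results listed here are members whose change differed between groups by a test of the difference itself, with an adjusted p below 0.05 in limma. All are signed log2 differences, so for a gene that fell a higher change can be a smaller fall, and for one that rose a lower change can be a smaller rise.

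The cytokine change was lower with BRD0476 than in DMSO at 6 h for Usp25 (-1.91), Usp43 (-0.56), Usp36 (-0.56) and Usp15 (-0.34). It was higher at 6 h for Usp13 (0.996), Usp20 (0.79), Usp33 (0.45), Usp38 (0.42), Usp34 (0.42), Usp40 (0.36), Usp10 (0.34) and Usp47 (0.26). At 12 h it was lower for Usp25 (-1.77), Usp43 (-0.87), Usp37 (-0.59) and Usp15 (-0.45), and higher for Usp13 (1.07), Usp1 (0.81) and Usp35 (0.36).

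The cytokine change in DMSO was higher at 12 h than at 6 h for Usp38 (0.72), Usp25 (0.65), Usp48 (0.60), Usp42 (0.40) and Usp10 (0.24). It was lower at 12 h for Usp36 (-0.95), Usp1 (-0.85), Usp3 (-0.59), Usp4 (-0.56), Usp13 (-0.39) and Usp35 (-0.31).

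The change with BRD0476 in the presence of cytokines was higher at 12 h for Usp36 (0.78), Usp1 (0.71) and Usp4 (0.59), and lower for Usp38 (-0.52), Usp20 (-0.50), Usp34 (-0.41) and Usp10 (-0.25).

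Leaving out single arrays lost the 6 h interaction of Usp33 with 7, of Usp47 with 3 and of Usp43 with 2 of the 12 arrays, and without both arrays numbered 3 of the cytokine and DMSO groups Usp33 read 0.40 without a call; no call of the 12 h interaction was lost in the alternatives, apart from other probe sets of Usp1 (0.68), Usp25 (-0.11) and Usp13 (-0.045).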

How the results depend on the processing

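Of 136 calls on members, 136 were kept when dim genes were left out (4440 genes, 2 of them members), 135 with an intensity trend and robust prior, 132 with array weights, 132 with a replicate block, 130 with centred arrays, 130 with quantile normalization, 111 with only the arrays compared and 110 with the probe sets of each gene averaged. The other calls in these 8 settings kept their direction. Leaving out 1 array kept 900 of 1038 calls.

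Counts of called members moved by more than 1.5 times in 5 comparisons. For BRD0476 without cytokines at 6 h (2 calls) the count was 0 with only the arrays compared and 0 to 1 with 1 array left out. At 12 h (2 calls) it was 6 with array weights, 1 with the replicate block, 1 with the mean of probe sets and 0 to 2 with 1 array left out. For cytokines with BRD0476 at 6 h (10 calls) leaving out 1 array gave 6 to 9. For 12 h against 6 h in untreated DMSO cells (0 calls) array weights gave 3 and leaving out 1 array 0 to 1. For the difference of the cytokine change between the times (11 calls) only the arrays compared gave 7. For BRD0476 without cytokines the split of 1 higher and 1 lower became 2 and 1 at 6 h and 2 and 0 at 12 h with centred arrays or quantile normalization.

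Replicate numbers did not pair the samples over the groups as a whole: over 84 pairs of same-numbered arrays r ran from -0.478 to 0.722 with a median of -0.042, 21 pairs were over 0.1, and 5 of 24 arrays correlated best with their own number. In 2 of 28 pairs of groups all 3 numbers were over 0.1: the cytokine and DMSO groups at 6 and 12 h (0.42, 0.396 and 0.722), and untreated DMSO against cytokines with BRD0476 at 6 h (0.11, 0.237 and 0.218). No comparison sets either pair against each other alone. The differences between the times do hold both cytokine and DMSO groups, and the 6 h interaction holds the other pair. With the number as a replicate block the cytokine comparisons in DMSO gave 23 calls at 6 h and 17 at 12 h, and their difference between the times gave 11. This block fits a shift for each number common to all groups, so it cannot take out a likeness held by a single pair of groups. Leaving out both cytokine and DMSO arrays numbered 3 kept 101 of 110 calls and turned none.

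Directions turned on other probe sets of a gene, of which 26 were called in the same direction, 49 lost the call and 30 turned, of 105. Turned means a change of the opposite sign, whether called or not. Only the Usp40 set with cytokines in DMSO at 6 h was itself called in the opposite direction (limma adjusted p = 0.0253). Several of the turned values lay near 0. The cause was not tested. With cytokines in DMSO at 6 h the turned values were Usp20 0.10, Usp34 0.19, Usp40 0.29 and Usp8 -0.42, and at 12 h Usp13 0.064 and Usp40 0.0097. For BRD0476 with cytokines they were Usp13 -0.14, Usp25 0.048, Usp34 -0.089, Usp40 -0.21 and Usp48 -0.0016 at 6 h, and Usp11 -0.10, Usp13 -0.19 and Usp25 0.020 at 12 h. For BRD0476 alone they were Usp13 -0.078 at 6 h and Usp11 -0.046 at 12 h. For cytokines with BRD0476 they were Usp48 0.012 at 6 h, and Usp13 0.019, Usp24 0.023 and Usp25 -0.073 at 12 h. For the interaction they were Usp13 -0.061, Usp20 -0.077, Usp25 0.0061, Usp34 -0.12 and Usp40 -0.30 at 6 h and Usp13 -0.045 at 12 h. For the change between times they were Usp13 0.11 and Usp25 -0.0052 with cytokines, and Usp20 0.17 and Usp34 0.0049 with BRD0476 and cytokines.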
